A study of Mus musculus with 2 samples.

Results

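The members described here are 40 genes of the cell cycle among the 31053 genes of the deposited count matrices. They were chosen by name from general knowledge of the phases, with earlier results of these data already known. They comprise 7 genes that act in G1 (the D and E cyclins with the inhibitors Cdkn1a and Cdkn1b), 15 genes of S phase (replication licensing, DNA synthesis and nucleotide supply) and 18 genes of G2 and mitosis (G2/M). The question was which liver cells carried their transcripts, and how the levels compared between C57BL/6 mice kept on chow and C57BL/6 mice kept on a NASH (non-alcoholic steatohepatitis) diet high in fat, cholesterol and fructose. Each diet lasted 6.5 weeks and gave 1 library of dissociated liver cells. Liver tissue was digested with collagenase and cells were collected on Percoll of 90% and 25% at 100 g and 1000 g. None of the sources used here gives the number, sex or age of the mice or the hour at which livers were taken. With 1 library per diet there is no test of the diet: values are given with 95% intervals that cover counting error only.

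As background, D cyclins with Cdk4 and Cdk6 start G1 progression, E cyclins with Cdk2 start replication, and cyclins A and B with Cdk1 drive cells into mitosis. Transcripts of the S genes rise with E2F activity at the G1/S border, and most G2/M genes are held down outside late cell cycle by the DREAM complex, which reads a short promoter element called the CHR, often with CCAAT boxes nearby. Adult hepatocytes rest outside the cycle and enter it after loss of liver mass. They also duplicate their genomes without dividing, so that S genes can be seen without mitosis.

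Promoter windows show how the phases differ in sequence and are printed for members whose counts are described later. RefSeq windows on build GRCm38.p6, from 250 bases before to 50 after a transcription start, were found for 32 of the 40 members (35 windows). Both strands were searched for the CHR (TTTGAA or TTTAAA), the CCAAT box (CCAAT) and an E2F site (TTTGGCGC, TTTGCCGC, TTTCGCGC, TTTCCCGC, TTTGGCGG or TTTCGCGG), each without regard to overlaps with the others. A CHR stood in 13 of 15 G2/M windows (86.7%), in 3 of 14 S windows (21.4%) and in 27.6% of all 32851 windows. A CCAAT box stood in 13 of 15 G2/M windows, in 10 of 14 S windows (71.4%) and in 37.4% of all windows. CHR and CCAAT box together were found in 12 of 15 G2/M windows (80.0%) against 10.7% of all. The E2F letters were in 6 of 14 S windows (42.9%), in 1 of 15 G2/M windows, that of Cdk1, and in 3.02% of all. Nusap1 and Bub1 were the G2/M members without the CHR letters. A match is a description of the letters and not evidence of binding.

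The 250 bases upstream of the start are given 5′ to 3′ on the gene's strand, with CHR, CCAAT and E2F letters of either strand in capitals, for the mitotic cyclin Ccnb1 (chr13:100786487-100786736, minus strand), its kinase Cdk1 (chr10:69352913-69353162, minus strand), the topoisomerase Top2a (chr11:99024190-99024439, minus strand) and, as an S gene without a CHR, the licensing helicase subunit Mcm6 (chr1:128359706-128359955, minus strand).
Ccnb1: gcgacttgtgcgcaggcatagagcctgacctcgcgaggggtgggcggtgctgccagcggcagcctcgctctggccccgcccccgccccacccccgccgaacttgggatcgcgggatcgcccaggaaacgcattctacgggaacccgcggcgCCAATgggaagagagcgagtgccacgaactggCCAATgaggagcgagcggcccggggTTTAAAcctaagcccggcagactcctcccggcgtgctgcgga
Cdk1: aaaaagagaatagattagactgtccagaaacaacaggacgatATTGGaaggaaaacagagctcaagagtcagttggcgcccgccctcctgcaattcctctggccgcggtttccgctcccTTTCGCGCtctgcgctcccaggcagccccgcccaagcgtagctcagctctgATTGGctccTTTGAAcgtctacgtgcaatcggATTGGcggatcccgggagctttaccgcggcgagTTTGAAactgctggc
Top2a: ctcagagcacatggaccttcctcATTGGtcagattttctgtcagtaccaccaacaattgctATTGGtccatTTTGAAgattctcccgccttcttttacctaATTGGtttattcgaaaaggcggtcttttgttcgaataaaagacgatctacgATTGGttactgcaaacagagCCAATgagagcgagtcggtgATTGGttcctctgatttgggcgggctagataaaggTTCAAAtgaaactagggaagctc
Mcm6: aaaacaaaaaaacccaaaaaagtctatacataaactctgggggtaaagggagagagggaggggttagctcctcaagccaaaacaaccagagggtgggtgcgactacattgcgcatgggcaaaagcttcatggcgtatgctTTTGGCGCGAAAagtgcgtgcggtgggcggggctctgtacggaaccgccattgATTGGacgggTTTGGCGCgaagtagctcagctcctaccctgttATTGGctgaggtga
The first base of the CHR lay at -42 from the start in Ccnb1, with CCAAT boxes at -99 and -67. It lay at -71 and -15 in Cdk1, and at -179 and -23 in Top2a. Mcm6 held its E2F letters at -110, -106 and -47.

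The chow library held 7359 barcodes with 71635757 UMIs (unique molecular identifiers, each counting 1 captured RNA molecule), and the NASH diet library held 5881 with 39440182. After filters on genes, UMIs and mitochondrial RNA and after removal of likely doublets, 4041 chow and 2305 NASH diet barcodes were kept, with median mitochondrial shares of 11.9% and 22.2%. Barcodes were sorted by markers, never by a cell cycle gene. The hepatocyte-like class required RNA of Alb and 7 further secreted-protein genes, at least 2500 UMIs and no other class reaching its marker limits. It held 1938 and 1162 barcodes, and the median barcode carried all 8 markers in both libraries. The 10 other classes, called non-hepatocyte here, together held 119 chow and 116 NASH diet barcodes: endothelial-like 43 and 45, mononuclear phagocyte-like 52 and 20, T or NK cell-like 5 and 17, mesenchymal-like 5 and 9, and few of the rest. The makeup of the non-hepatocyte set thus differed between the diets. The limits of this sorting were set after the data were seen, and 24 chow and 63 NASH diet barcodes lay between 1% and 2% hepatocyte marker RNA, near the limit of 1.5%. The libraries shared 69 barcode sequences, 8 of them kept in both.

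In CPM (the UMIs of a gene per 1e+06 UMIs of the class), 39 of 40 members were higher in non-hepatocyte than in hepatocyte-like barcodes in each library. The exception in both was Ung, the uracil glycosylase that repairs DNA, at 15.8 CPM in hepatocyte-like and 11.8 CPM in non-hepatocyte chow barcodes, and at 11.1 and 7.46 CPM in the NASH diet library. The share of all genes that were higher in non-hepatocyte barcodes was not computed, so the count of 39 has no background beside it. Median mitochondrial shares were 18.4% in hepatocyte-like and 9.10% in non-hepatocyte chow barcodes, and 23.0% and 12.9% with the NASH diet. The G2/M members summed to 1062 CPM in non-hepatocyte and 27.3 CPM in hepatocyte-like chow barcodes. In the NASH diet library these sums were 1489 and 12.8 CPM. The non-hepatocyte classes were 2.94% of kept chow barcodes and held 42.2% of the kept G2/M UMIs. In the NASH diet library they were 5.03% of barcodes and held 82.7%. For the S members the corresponding shares of UMIs were 13.9% and 21.3%, and for the G1 members 17.1% and 33.0%.

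**Figure D1:**
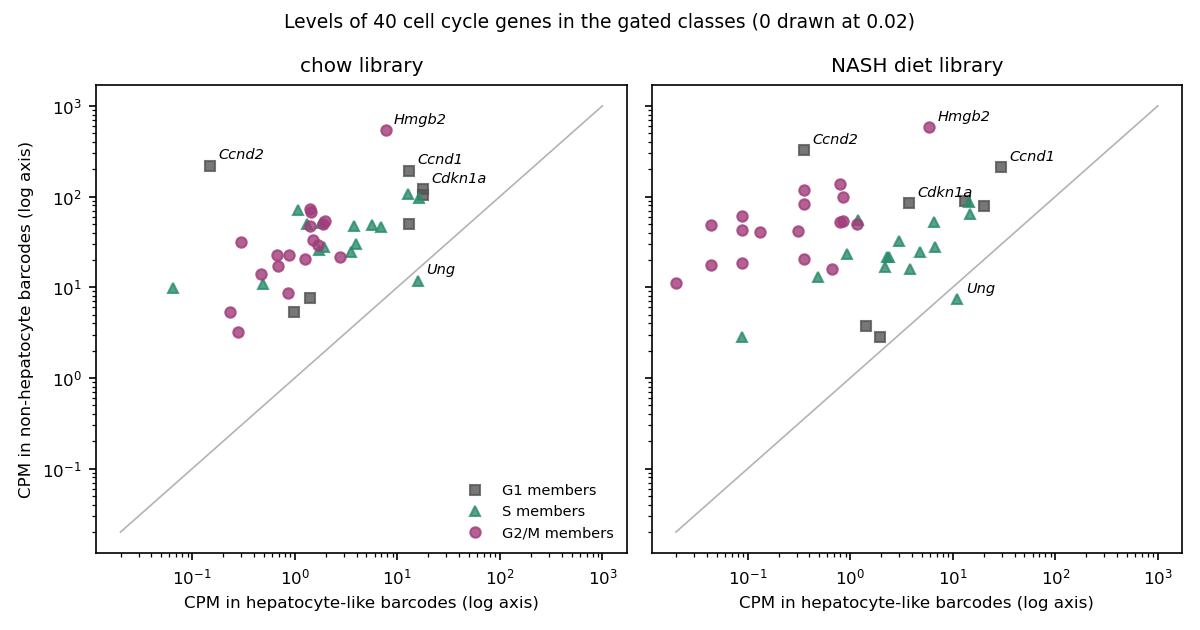
Each point is 1 of the 40 members, with its CPM in hepatocyte-like barcodes on the x axis and in non-hepatocyte barcodes on the y axis, both log axes, 1 panel per library. All points except Ung lie above the line of equal levels, and Ccnd2 lies farthest from it in the chow panel.

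Among the well-counted G1 members, Ccnd1 and Cdkn1a differed most between the diets in hepatocyte-like barcodes, in opposite directions. Ccnd1 encodes cyclin D1, which links growth signals to the cycle. It had 601 chow and 660 NASH diet UMIs, or 12.9 and 29.3 CPM, a log2 ratio of NASH diet over chow of 1.18 (interval 1.02 to 1.35). Cdkn1a encodes p21, a CDK inhibitor and p53 target, and had 836 and 85 UMIs, or 17.9 and 3.77 CPM, a log2 ratio of -2.24 (-2.59 to -1.93). Of the 7 G1 members, 6 were higher and 1 was lower in the NASH diet library, where 7820 of 12243 genes were higher and 4423 lower. At 2-fold or more, 2 were higher (Ccnd1 and Ccnd2) and 1 was lower (Cdkn1a), where 6.75% and 4.85% of 12243 genes passed the same limits. The G1 median was 0.47 and that of all genes 0.13.

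Ccnd3, Cdkn1b and the E cyclins differed by less than 2-fold. Ccnd3, the third D cyclin, had 828 and 455 UMIs, or 17.8 and 20.2 CPM, a log2 ratio of 0.19 (0.02 to 0.35). Cdkn1b, the inhibitor p27, was at 13.0 and 13.2 CPM, a log2 ratio of 0.02 (-0.18 to 0.23). The E cyclins Ccne1 (66 and 44 UMIs) and Ccne2 (46 and 32 UMIs) had ratios of 0.47 and 0.53 with intervals that held 0. Ccnd2 was almost absent, with 7 and 8 UMIs (1.23, -0.42 to 2.94), while it reached 220 and 322 CPM in non-hepatocyte barcodes. There it was at 479 and 434 CPM in the endothelial-like and at 186 and 439 CPM in the T or NK cell-like class. Ccnd2 was thus below 1 CPM in hepatocyte-like barcodes, where Ccnd1 and Ccnd3 were above 10 CPM.

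Cdkn1a was lower in the NASH diet library in each of 3 strata of mitochondrial share. In barcodes with 0 to 10%, 10 to 20% and 20 to 30% mitochondrial UMIs the log2 ratio was -4.32, -1.37 and -2.43. Ccnd1 gave 0.29, 1.60 and 0.79 in these strata, and the first of these, from 21 and 26 UMIs, had an interval that held 0. With the removed doublets put back, Ccnd1 had 767 and 672 UMIs, a log2 ratio of 0.97, just under 2-fold, which left 1 G1 member higher by 2-fold or more (Ccnd2, 7 and 14 UMIs) where 6.97% of 12319 genes were. Cdkn1a was at -2.23. In non-hepatocyte barcodes Cdkn1a was at 122 and 84.9 CPM (-0.52, -0.94 to -0.11) and Ccnd1 at 193 and 212 CPM (0.13, -0.15 to 0.43). The difference of these ratios from the hepatocyte-like ones was not tested.

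Cdkn1a is known as a clock-controlled gene in liver, and clock genes differed widely between these libraries. In hepatocyte-like barcodes Dbp, an output of the clock, had 473 chow and 1876 NASH diet UMIs (3.04), and Arntl, which encodes the activator BMAL1, had 533 and 45 (-2.50). Of 16 clock genes in a list added after the data were seen, 8 were higher and 3 lower by 2-fold or more. Of 12243 genes, 6.75% and 4.85% passed these limits. Diet and hour of collection cannot be told apart here, and the part of the clock in the Cdkn1a value was not tested.

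Genes around the G1 members were taken from 2 lists. Among 22 listed p53 target genes 21 had at least 10 UMIs, and their median was 0.26. By 2-fold or more 2 were higher, where 6.75% of all genes were, and 0 were lower. With 4.85% of all genes lower by 2-fold or more, a count of 0 in 21 is near the background. Among targets with at least 50 UMIs over both libraries, the lowest was Gdf15, a stress-induced cytokine, at 40.9 and 25.0 CPM (-0.71), and the highest was Ddb2, a DNA damage sensor, at 1.25 and 2.75 CPM (1.14). Below that limit Eda2r, with 20 and 5 UMIs, was at -0.85 and Phlda3, with 12 and 13, at 1.16, both with intervals that held 0. Among 32 measured genes of the CDK and E2F network, 4 were higher and 2 lower by 2-fold or more, where 6.75% and 4.85% of all genes were. The kinase Wee1, which holds Cdk1 inactive and is also clock-controlled in liver, had 56 and 281 UMIs (3.37), Cdk6, a partner of D cyclins, 557 and 627 (1.22), and the repressor E2f8 661 and 146 (-1.13).

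**Figure D2:**
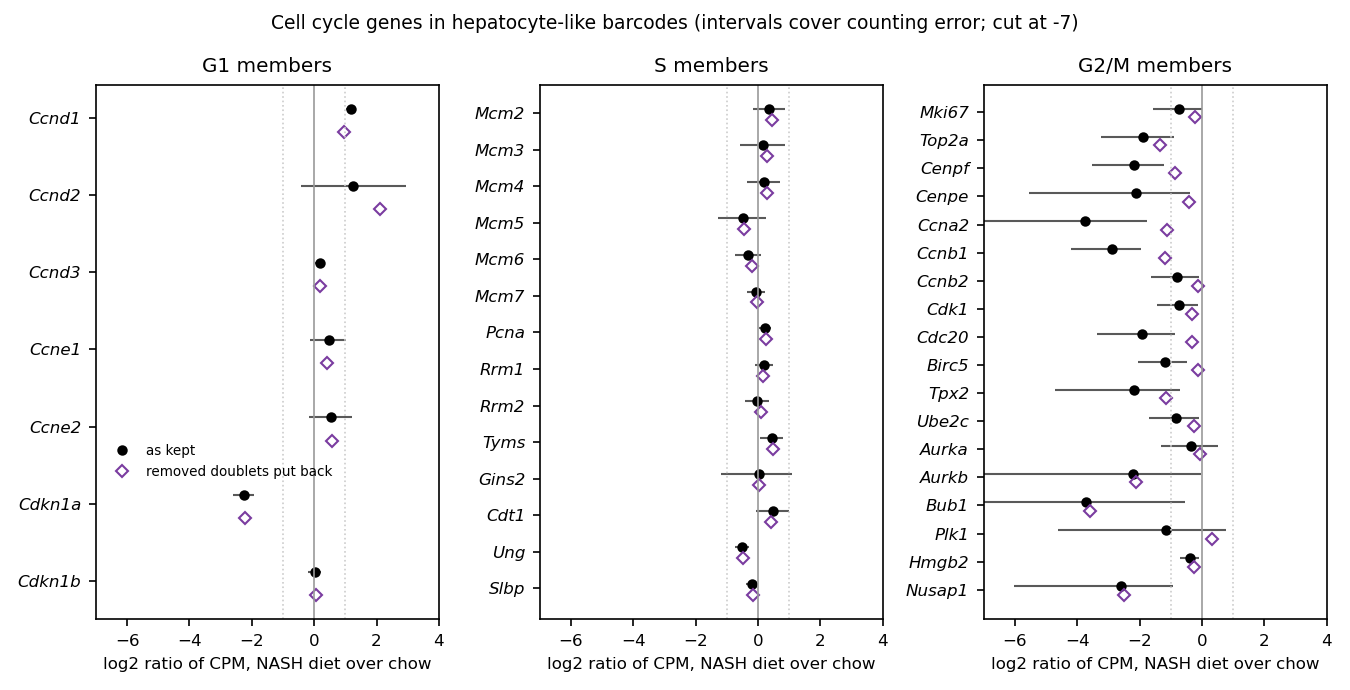
The x axis gives the log2 ratio of CPM, NASH diet over chow, of each measured member in hepatocyte-like barcodes, with filled points and counting intervals for the kept barcodes and open diamonds with the removed doublets put back. Dotted lines mark 2-fold: Ccnd1 and Cdkn1a lie beyond them on opposite sides, the S members lie between them, and the G2/M members lie left of 0 and move right when doublets are put back.

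The S members stood close to equal in hepatocyte-like barcodes of both diets. Of 15, 14 had at least 10 UMIs (Cdc6 had 3 and 2). Of these, 8 were higher and 6 lower, where 7820 and 4423 of 12243 genes were. By 2-fold or more 0 were higher and 0 lower, where 6.75% and 4.85% of genes were, so 0 in 14 is near the background. Their median was 0.09. They include the helicase subunits Mcm2 to Mcm7, whose ratios ran from -0.47 (Mcm5) to 0.36 (Mcm2), all with intervals that held 0. Pcna, the sliding clamp of DNA polymerase, had 593 and 333 UMIs, or 12.7 and 14.8 CPM (0.22, 0.02 to 0.41), and Tyms, which makes thymidylate, 163 and 107 UMIs (0.44, 0.08 to 0.80). These were the 2 S members with intervals above 0.

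Ung was the 1 S member with an interval below 0, at 738 and 250 UMIs (-0.51, -0.73 to -0.30). Slbp, which binds histone mRNA, had 755 and 322 UMIs, or 16.2 and 14.3 CPM (-0.18, -0.37 to 0.01). Mcm7 had 325 and 150 UMIs (-0.06) and the ribonucleotide reductase subunit Rrm1 265 and 147 (0.20). Of 26 measured further S genes, 3 were higher and 1 was lower by 2-fold or more, where 6.75% and 4.85% of all genes were. Their median was 0.20. The thymidine kinase Tk1 was at 3.18 and 11.8 CPM (1.89), Gmnn, an inhibitor of licensing, at 4.62 and 9.99 CPM (1.11), and the primase subunit Prim1 at 2.17 and 1.20 CPM (-0.84).

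In non-hepatocyte barcodes 13 of 15 S members were lower in the NASH diet library, where 5582 of 10958 genes were. Their median was -0.64 against -0.01 over all genes. By 2-fold or more, 3 were lower and 0 higher, where 6.79% and 8.23% of 10958 genes passed. Mcm2 was at 51.7 and 21.4 CPM (-1.25, -2.05 to -0.52), Mcm5 at 49.5 and 23.3 CPM (-1.07, -1.85 to -0.36) and Pcna at 107 and 64.3 CPM (-0.73, -1.19 to -0.27). The third was Cdc6, which loads the helicase, at 9 and 3 UMIs. The S median stayed between -0.66 and -0.28 when any 1 of the 3 largest classes, or the barcode with most G2/M UMIs of either library, was left out.

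All 18 G2/M members were lower in hepatocyte-like barcodes of the NASH diet library, where 4423 of 12243 genes were. Together they had 1274 UMIs over 1938 chow barcodes and 289 UMIs over 1162 NASH diet barcodes. The members are not separate observations, since they shared barcodes. In chow, the 20 barcodes with at least 3 G2/M members held a median of 87.2% of a member's UMIs. The intervals treat UMIs as independent and do not cover this. By 2-fold or more 12 were lower, where 4.85% of 12243 genes were, and for 15 the interval lay below 0. The limit of 10 UMIs was set on the sum of both libraries. All 18 members reached it with chow alone, but only 7 with the NASH diet alone. These counts and the median thus include members that passed through chow, where they were higher. The median was -1.91, or -1.55 with Bub1, a spindle checkpoint kinase gene with 13 UMIs against 0, set at the limit of 3 counts (at least 2.09-fold lower). Ccnb1 had 129 and 8 UMIs, or 2.77 and 0.355 CPM (-2.88, -4.20 to -1.94). Of its chow UMIs, 67 lay in 11 barcodes with fewer than 3 G2/M members. Top2a, which untangles DNA, had 65 and 8 UMIs (-1.90), the kinetochore protein gene Cenpf 79 and 8 (-2.18), and Cdc20, an activator of the anaphase-promoting complex, 58 and 7 (-1.91). These 4 genes all differed by more than 2-fold. The lowest ratio was that of the cyclin gene Ccna2, with 41 and 1 UMIs (-3.74, -9.65 to -1.75).

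The other members with many UMIs lay closer to 0 than these 4. Hmgb2, a chromatin protein also made outside the cycle, had 358 and 132 UMIs, or 7.69 and 5.86 CPM (-0.39, -0.69 to -0.10). Cdk1 had 91 and 26 UMIs (-0.74, -1.45 to -0.12), and Birc5, which encodes survivin of the chromosomal passenger complex, 87 and 18 (-1.19, -2.04 to -0.48). The proliferation marker Mki67 had 66 and 19 UMIs (-0.72, -1.57 to 0.01), and the ubiquitin-conjugating enzyme gene Ube2c 67 and 18 (-0.82, -1.69 to -0.08). When each barcode was weighted equally in place of pooling UMIs, the ratio was 1.29 for Mki67 and 0.051 for Ube2c, so their direction depended on that choice. At a mitochondrial limit of 20% the ratio of Mki67 was -2.78.

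The size of the G2/M difference also varied with mitochondrial share. In hepatocyte-like barcodes with 10 to 20% mitochondrial UMIs (1081 chow and 227 NASH diet barcodes, 920 and 59 G2/M UMIs) all 18 members were lower, with a median of -1.80. In those with 20 to 30% (671 and 792 barcodes, 317 and 204 UMIs) 13 were lower and 5 higher, with a median of -0.45. Here Top2a had 4 and 6 UMIs (0.40), Mki67 15 and 18 (0.12) and Aurka, a spindle pole kinase gene, 4 and 11 (1.22), all with intervals that held 0. Ccnb1 had 61 and 7 (-3.17, -4.63 to -2.13). Below 10% there were 37 and 26 G2/M UMIs. The stratum of 20 to 30% held most NASH diet and a minority of chow barcodes, and its part in the pooled ratio was not tested further.

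The pooled G2/M values rest on few barcodes. The doublet removal took 157 hepatocyte-like barcodes from chow and 19 from the NASH diet, and with them put back the G2/M UMIs were 1323 and 423 and the median was -0.37. Then 17 of 18 members were still lower, where 4372 of 12319 genes were. By 2-fold or more 7 were lower, where 4.63% of genes passed, and 6 intervals lay below 0. Ccnb1 had 129 and 25 UMIs (-1.19), Top2a 65 and 11 (-1.35), Birc5 88 and 36 (-0.12), Cdc20 59 and 21 (-0.31), and Plk1, a mitotic kinase, 11 and 6 (0.33). The change came from 3 NASH diet barcodes of 23194, 37456 and 27422 UMIs that held 59, 69 and 3 G2/M UMIs over 14, 12 and 3 members. They carried 6.65%, 5.90% and 3.20% Alb, and no other class reached its marker limits in them, which does not exclude single markers of other classes. The direction of the G2/M median thus held with and without these 3 barcodes, and its size did not.

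With the doublets removed, the further G2/M genes showed the same direction in hepatocyte-like barcodes. No value was computed for them with the doublets put back. Of 36 measured, 29 were lower, where 4423 of 12243 genes were. By 2-fold or more 15 were lower and 1 was higher, where 4.85% and 6.75% of genes were. The median was -0.85. Ckap2, a spindle protein gene, was at 1.55 and 0.222 CPM (-2.67), and Cdca3, which takes part in mitotic entry, at 2.94 and 0.933 CPM (-1.63). The highest ratios among genes with at least 50 UMIs were those of Spc25, of the kinetochore NDC80 complex, at 3.67 and 9.95 CPM (1.44), the histone variant gene H2afx at 7.66 and 9.81 CPM (0.36), and Cks2, which binds CDKs, at 32.4 and 38.7 CPM (0.26). Most further late-cycle genes thus lay on the same side as the G2/M members. They are not a separate observation. In chow, 35 of 36 measured were at least 2-fold higher in the hepatocyte-like barcodes with 3 or more G2/M members, where 24.2% of 11753 genes were.

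In non-hepatocyte barcodes the G2/M members ran the other way. Of 18, 15 were higher in the NASH diet library, where 5376 of 10958 genes were. By 2-fold or more 10 were higher, where 8.23% of genes were, and for 11 the interval lay above 0. The median was 1.02. Mki67 had 44 and 107 UMIs, or 47.4 and 99.8 CPM (1.06, 0.56 to 1.62). Cenpf had 27 and 88 UMIs (1.48), Ube2c 62 and 147 (1.03), Top2a 67 and 126 (0.70) and Nusap1, a spindle protein gene, 21 and 65 (1.40). Hmgb2 was at 543 and 579 CPM (0.09, -0.08 to 0.27), and Ccnb1 had 20 and 22 UMIs (-0.07). Over all kept barcodes pooled, with those in neither set, 16 of 18 G2/M members were higher in the NASH diet library, where 10185 of 13933 genes were. Their median was 0.78 against 0.23 over all genes. By 2-fold or more, 6 were higher and 1 was lower (Ccnb1, -1.29), where 13.4% and 3.34% of 13933 genes passed. The pooled barcodes included 1984 chow and 1027 NASH diet ones in neither set. Non-hepatocyte barcodes held 1.86% of the kept chow and 4.24% of the kept NASH diet UMIs, so the pooled ratios also reflect class makeup.

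The direction in non-hepatocyte barcodes depended on 1 class. Without the endothelial-like class the median was -0.51, with 4 of 16 measured members higher. Without the T or NK cell-like class it was 2.17, without the mononuclear phagocyte-like class 0.45. A chow T or NK cell-like barcode with 41499 UMIs held 472 of the 986 chow G2/M UMIs, and without it the median was 2.11. Without the NASH diet barcode with most G2/M UMIs, an endothelial-like barcode with 349, the median was 0.56. Within the endothelial-like class Mki67 had 1 and 56 UMIs and Top2a 0 and 88. Within the mononuclear phagocyte-like class they had 7 and 0, and 26 and 3 UMIs.

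To find the cells behind these sums, a barcode was said to co-express a phase when at least 3 of its members had a UMI. G2/M members were co-expressed in 34 of 4041 kept chow barcodes (0.841%) and in 27 of 2305 NASH diet barcodes (1.17%), a log2 ratio of 0.48 (-0.31 to 1.25). Of these, 20 of 34 chow barcodes (58.8%, exact binomial interval 40.7 to 75.4%) and 11 of 27 NASH diet barcodes (40.7%, 22.4 to 61.2%) were hepatocyte-like. Another 13 and 14 were non-hepatocyte, and the intervals of the 2 shares overlapped. Among hepatocyte-like barcodes the co-expressing share was 1.03% and 0.947%, and among non-hepatocyte barcodes 10.9% and 12.1%. In droplets with hepatocyte RNA but under 2500 UMIs it was 1 of 1702 and 1 of 940, at median depths of 653 and 1124 UMIs against 24763 and 19311 in the hepatocyte-like class.

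The hepatocyte-like barcodes of the diets differed in how many members they held. The median co-expressing barcode had 9 of 18 members in chow against 3 with the NASH diet, and the fullest had 18 against 8. Of barcodes with at least 10 members, 9 of 14 chow barcodes and 0 of 8 NASH diet barcodes were hepatocyte-like. With the removed doublets put back these were 9 of 15 and 2 of 10. After thinning to 5000 UMIs per barcode, which left out shallower barcodes, 14 of 1811 hepatocyte-like barcodes from chow and 1 of 1037 from the NASH diet still co-expressed G2/M members, against 8 of 75 and 9 of 80 non-hepatocyte ones. The fullest chow hepatocyte-like barcode had 31512 UMIs, all 18 members and 135 G2/M UMIs. The fullest NASH diet one that was kept had 8 members and 12 G2/M UMIs.

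**Figure D3:**
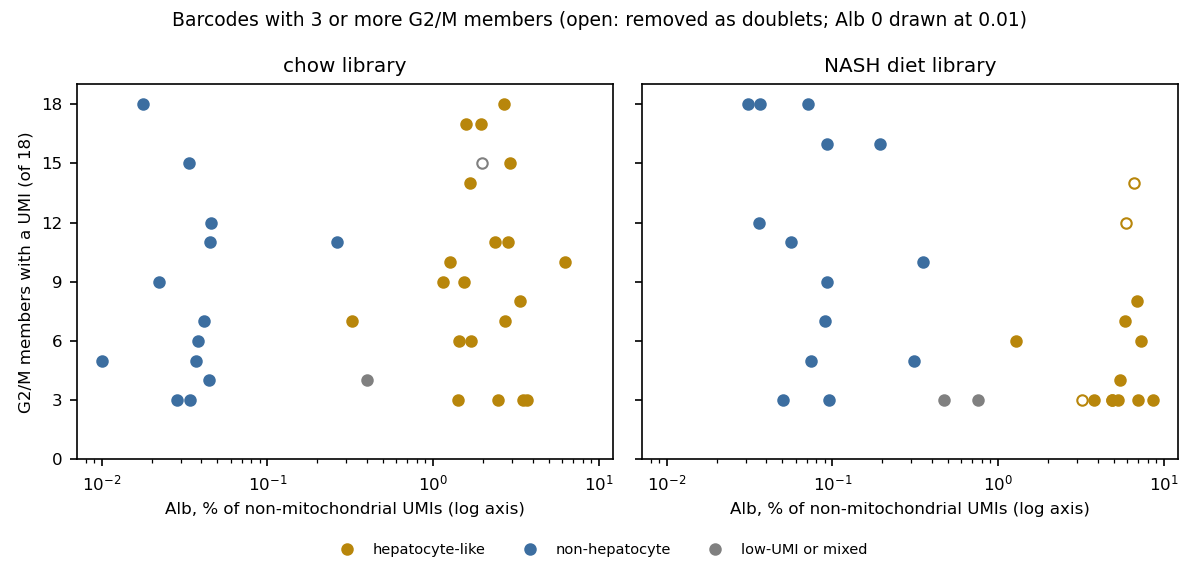
Each point is a barcode with at least 3 G2/M members, with Alb as a percent of non-mitochondrial UMIs on a log x axis and the number of G2/M members on the y axis, 1 panel per library; open points were removed as doublets. Hepatocyte-like points reach 18 members with chow and 8 among kept barcodes of the NASH diet, while non-hepatocyte points reach 18 in both.

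Alb is part of the sorting rule, so its level in these barcodes is a description. It was 0.32 to 6.30% of non-mitochondrial UMIs in the co-expressing hepatocyte-like chow barcodes and 1.28 to 8.66% in the NASH diet ones. In non-hepatocyte ones it was 0.00 to 0.26% and 0.03 to 0.36%. The non-hepatocyte barcodes came in part from different classes. In chow, 9 of 52 mononuclear phagocyte-like and 0 of 43 endothelial-like barcodes co-expressed G2/M members, where a count of 0 in 43 sets a limit of 6.98%. In the NASH diet library it was 0 of 20, with a limit of 15%, and 6 of 45. T or NK cell-like barcodes gave 2 of 5 and 4 of 17, mesenchymal-like 1 of 5 and 2 of 9, and conventional dendritic cell-like 1 of 1 and 1 of 5, so these classes contributed in both libraries.

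S and G2/M genes were carried together by part of these barcodes. Of the 20 co-expressing chow hepatocyte-like barcodes, 14 also had at least 5 S members, and of the 11 NASH diet ones 5 did. At least 5 S members without G2/M co-expression were found in 35 and 17 hepatocyte-like barcodes. Co-expression of at least 3 S members was more frequent, in 360 of 1938 and 147 of 1162 hepatocyte-like barcodes, and fell to 20 of 1811 and 9 of 1037 after thinning to 5000 UMIs. The share with 3 S members thus depended on depth, and its unthinned value is no measure of cells in S phase.

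How far each gene was held by co-expressing barcodes differed between the phases in chow and less so with the NASH diet. In chow hepatocyte-like barcodes the 20 co-expressing ones had 1.34% of the UMIs, and held a median of 87.2% of the UMIs of a G2/M member, each G2/M gene being left out of the choice of barcodes for its own value. The median was 15.9% for S members and 4.35% for G1 members. Mki67 had 65 of 66 UMIs there, Cenpe, a mitotic kinesin gene, 22 of 22, and Bub1 13 of 13. Hmgb2 had 21.2% of its UMIs there. Among S genes Rrm2, the cycling reductase subunit, had 35.5% and Mcm6 32.4%, against 2.91% for Slbp and 0.81% for Ung. The chow S list thus held genes with a larger and genes with a smaller part of their UMIs in co-expressing barcodes. In NASH diet hepatocyte-like barcodes the median was 15.8% over the 7 G2/M members with at least 10 UMIs, 13.6% over S members and 6.82% over G1 members. Pooled over members, 16.96% of 289 G2/M UMIs and 7.74% of 1680 S UMIs lay in co-expressing barcodes there, against 61.5% of 1274 and 9.97% of 3589 with chow. With its own gene left out, a barcode with exactly 3 G2/M members could not count for any of them. This held for 4 of 20 chow and 6 of 11 NASH diet co-expressing barcodes. Hmgb2 gave 358 of the 1274 and 132 of the 289 UMIs. The G2/M shares of the 2 diets are therefore not on equal terms.

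The inhibitor Cdkn1a was higher in the G2/M co-expressing hepatocyte-like barcodes than in the other hepatocyte-like barcodes of both libraries. It was at 68.9 against 17.3 CPM in chow, 3.99-fold (2.87 to 5.43), and with the NASH diet at 68.8 against 3.01 CPM, 22.8-fold (12.8 to 38.9). The 2 levels in co-expressing barcodes, from 43 and 18 UMIs, lay within counting error of each other, and those in the other barcodes did not. Of the 18 NASH diet Cdkn1a UMIs, 7 came from 1 barcode and 6 from another, and 5 of the 11 barcodes had any. The counting interval does not cover such unevenness between barcodes. Ccnd1 was at 40.1 against 12.5 CPM in chow, 3.20-fold (2.05 to 4.77), and with the NASH diet at 172 against 27.6 CPM, 6.22-fold (4.49 to 8.43). Of the 45 NASH diet UMIs, 25 came from 1 barcode. Over all genes, 24.2% of 11753 with chow and 23.6% of 11127 with the NASH diet were higher by 2-fold or more in co-expressing barcodes.

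Genes outside the members followed them. Of 36 further G2/M genes measured in chow hepatocyte-like barcodes, 35 were at least 2-fold higher in co-expressing than in other barcodes, where 24.2% of 11753 genes were. Hmmr, a spindle assembly factor gene, led with UMIs in 13 of 20 co-expressing and 1 of 1918 other barcodes. It was followed by Neurl1b, Iqgap3, Pbk, Racgap1, Prc1, Cenpi, Kntc1, Ckap2l and Knl1, most of which serve the spindle, the kinetochore or cytokinesis. Alb, the fibrinogen gene Fgb and the transferrin gene Trf are markers by which the class was sorted, so their presence is set by the rule. They stood at 18416 against 25738, 5109 against 9640 and 6226 against 10690 CPM in co-expressing and other barcodes.

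Ccnb1 departed from the other G2/M members in chow hepatocyte-like barcodes in that some barcodes carried several of its UMIs nearly alone. Of its 129 UMIs, 57 (44.2%) lay in co-expressing barcodes, a share that was lower still for Aurka (42.5%) and Hmgb2 (21.2%). Another 67 Ccnb1 UMIs lay in 11 barcodes that each had 3 to 13 of them but fewer than 3 G2/M members. Among these 11, 1 had any other G2/M member. The 1907 hepatocyte-like barcodes left held 5. In the NASH diet library 1 barcode, with 5 UMIs, was of this kind. The 11 barcodes had a median of 26364 UMIs, 21.1% mitochondrial UMIs and 2.89% Alb, against 24686, 18.4% and 3.00% in the 1907. After Ccnb1 the gene with the highest ratio in the 11 was Cep97, at 5.29-fold with 4 UMIs. Of the other G2/M members, Cenpf in 1 chow barcode and Ccnb2 in 1 NASH diet barcode had 3 or more UMIs without 3 members. This split of Ccnb1 was noticed in the data and not searched for in advance.

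**Figure D4:**
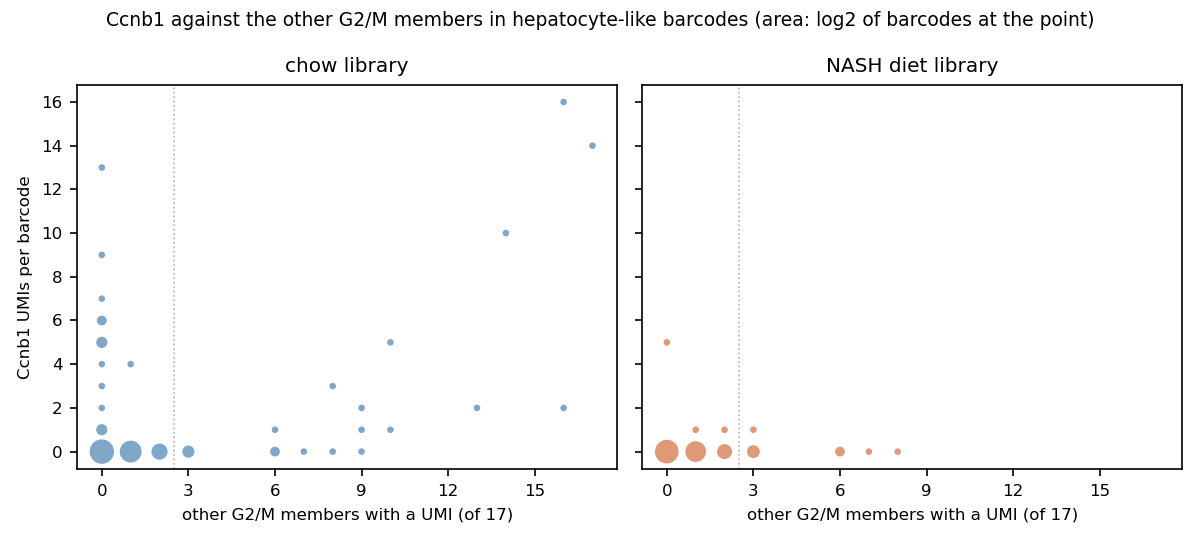
Each point stands for the hepatocyte-like barcodes with a given number of other G2/M members with a UMI (x axis, of 17) and of Ccnb1 UMIs (y axis), with the point's area on a log2 scale of the number of barcodes and a dotted line below 3 members. The chow panel shows a column of barcodes with up to 13 Ccnb1 UMIs at 0 other members, separate from the barcodes with many members at the right.

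Ccnd1 was unevenly spread among hepatocyte-like barcodes. It had 2.46 and 2.63 UMIs per barcode with a UMI, against 1.32 and 1.24 for Ccnd3, and 66.4% and 65.3% of its UMIs lay in 82 chow and 79 NASH diet barcodes with 3 or more. Barcodes of at least 10000 UMIs with 3 or more Ccnd1 UMIs (79 and 79) were therefore set beside those with 0 (1465 and 682), a split chosen after the data were seen. Median depth was 30758 against 26123 chow UMIs and 24348 against 21409 NASH diet UMIs, and median mitochondrial share differed by less than 1 percentage point in each.

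In the NASH diet library, Ccnd1-rich hepatocyte-like barcodes had little RNA of pericentral genes, which mark hepatocytes around the central vein. Of 12 listed pericentral genes 11 were lower by 2-fold or more, where 4.43% of 10868 genes were, and the median log2 ratio was -3.78 (-2.82 with genes at 0 set at 3 counts). Glul, glutamine synthetase, was at 55.9 against 1293 CPM, Oat, ornithine aminotransferase, at 44.1 against 1243 CPM, and the glutamate transporter gene Slc1a2 at 1.96 against 236 CPM. Of 12 periportal genes 0 passed 2-fold, where 3.50% of all genes were higher and 4.43% lower, so this count is near the background. Their median was 0.17.

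In chow the split was weaker. Of the pericentral genes 5 of 12 were lower by 2-fold or more, where 3.63% of 11603 genes were, with a median of -0.91, and of the periportal genes 4 of 12, with a median of -0.70. Glul was at 79.4 against 319 CPM. Slc1a2 had 0 against 1736 UMIs, at least 36.3-fold lower. Among Ccnd1-rich chow barcodes 0 of 79 had a Slc1a2 UMI, against 7.65% of those with 0 Ccnd1 UMIs. With the NASH diet the share of barcodes with a Slc1a2 UMI was lower too, at 5.06% against 15.8%. For Glul it was not, at 77.2% against 64.0% with chow and 49.4% against 52.6% with the NASH diet, so its lower CPM in Ccnd1-rich barcodes was a difference in UMIs per barcode with Glul and not in how many barcodes had it. Of further G2/M genes, 20 of 30 measured were higher by 2-fold or more with chow and 3 of 20 with the NASH diet, where 6.05% and 3.50% of all genes were.

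**Figure D5:**
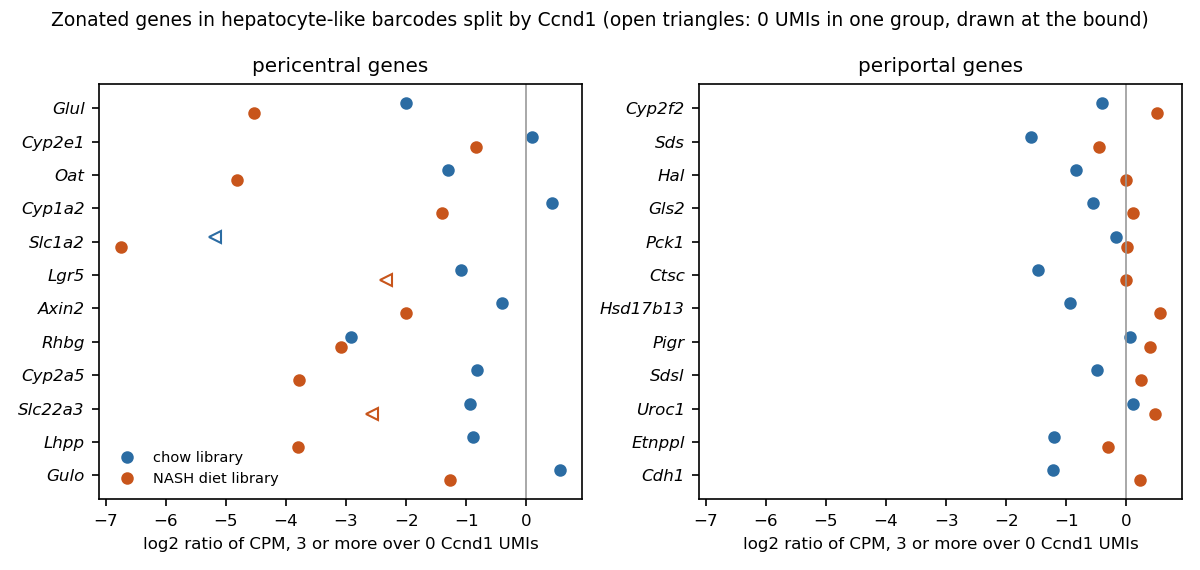
The x axis gives the log2 ratio of CPM in hepatocyte-like barcodes with 3 or more Ccnd1 UMIs over those with 0, for 12 pericentral and 12 periportal genes in both libraries; open triangles are genes with 0 UMIs in the Ccnd1-rich barcodes, drawn at the bound of 3 counts. Pericentral genes of the NASH diet library lie at the left, Glul at -4.53 and Oat at -4.81, while its periportal genes stay near 0.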

How the data were processed

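Single-cell RNA was measured in 2 libraries of C57BL/6 liver cells, 1 per diet, on a 10x Genomics 3′ kit given as version 3 per the labels' protocols; this version is doubtful, since the barcode sequences resemble older chemistry. The deposited values are raw UMI counts per gene and barcode, with no normalization. Per the file headers Cell Ranger 3.0.2 wrote them, whereas the submitters' processing notes name Cell Ranger 3.1.0, Seurat and the build mm10. A merged matrix held 86.4% of the chow UMIs and served as an alternative.

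Barcodes were kept from 200 genes and 500 UMIs upward if no more than 30% of UMIs were mitochondrial. Scrublet (scanpy 1.11.5, seed 0) called 0 doublets by its own threshold, so the highest scores, at 0.8% per 1000 barcodes, were removed (285 of 4326 chow and 64 of 2369 NASH diet barcodes). A non-hepatocyte class needed at least 3 of its markers, at least 0.2% of non-mitochondrial UMIs in them and under 1.5% in the 8 hepatocyte markers. The hepatocyte-like class needed at least 1.5% in these, at least 0.2% Alb, at least 2500 UMIs and no other class. UMIs were pooled per class and library. Ratios of CPM used a prior of 0.5 UMIs and genes with at least 10 UMIs over both libraries, with exact binomial intervals, and CPM intervals are exact Poisson. The ratio code was tested on simulated data. With 1 library per diet no p-value was computed.

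The members and lists were chosen with earlier results of these data known. Named members are the 5 of each phase with most UMIs and those 2-fold apart in hepatocytes with at least 50 UMIs; from other lists, the 3 highest and 3 lowest, of which some are given; and the 10 genes highest in co-expressing barcodes. Other genes named were chosen after their values were seen, as were the clock, pericentral and periportal lists and the Ccnb1 and Ccnd1 splits. Gene positions were not needed for the counts; all 40 members were found in GENCODE M21 (GRCm38), and none shares exon sequence with another gene on its strand. Columns of per-sample values left unused numbered 0.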

Additional observations from a re-analysis of the deposited data

Results flagged for a closer look

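Barcodes left out of the counts also co-expressed G2/M members. In the chow library 6 such barcodes had been left out, 1 as a doublet and 5 by the filters, and 4 of them passed the hepatocyte-like marker limits. In the NASH diet library 12 had been left out, 3 as doublets and 9 by the filters, of which 6 passed the hepatocyte-like limits and 3 had at least 10 G2/M members. They were listed because their signal lies outside the barcodes compared in the report. Counting every deposited barcode, 24 of 40 co-expressing chow barcodes and 17 of 39 NASH diet ones were hepatocyte-like. All those that failed the filters did so by the limit of 30% mitochondrial UMIs, at 32.6 to 41.5% with chow and 31.0 to 92.0% with the NASH diet. Why their mitochondrial share was high was not tested.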

How the results depend on the processing

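No paired analysis was possible because each diet has 1 library. Over 17 other settings the G2/M median in hepatocyte-like barcodes stayed below 0, from -2.41 to -0.37, the latter without doublet removal. The G1 median ran from 0.25 to 0.53 and the S median from 0.04 to 0.28. Among single genes, Mki67 turned to 1.29 and Ube2c to 0.051 when barcodes were averaged. The G2/M share ratio (0.48) was 1.41 at a mitochondrial limit of 20% and -0.34 after thinning to 5000 UMIs, and its interval held 0 as reported. The S share ratio (-0.29) has no stable direction: it was -1.04 with no mitochondrial limit, 0.27 at 20%, -0.76 with at least 500 genes and 1000 UMIs, -0.0089 in the merged matrix, 0.16 with at least 5 members, and 0.31 and 0.13 after thinning to 2000 and 5000 UMIs. The hepatocyte-like share of NASH diet co-expressing barcodes was 12.5% at the 20% limit. For settings added after the data were seen, the G2/M median in non-hepatocyte barcodes (1.02) was 2.11 without the chow barcode with most G2/M UMIs, -0.51 without the endothelial-like class and 2.17 without the T or NK cell-like class. The cause of these changes was not tested. Depth limits the G2/M ratios, since 17 of the 18 members had 26 or fewer UMIs in NASH diet hepatocyte-like barcodes.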
